A study of Mus musculus with 5 samples.

Results

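Axon guidance ligands and receptors were followed in a map of acetylated chromatin in a cell model of Huntington's disease. The genes were taken by symbol from the GENCODE vM1 annotation of the mm9 mouse genome: every protein-coding gene whose symbol starts with Sema, Plxn, Epha, Ephb, Efna, Efnb, Unc5 or Robo, together with Slit1, Slit2, Slit3, Ntn1, Ntn4, Dcc, Nrp1 and Nrp2. This rule gave 70 annotated entries with 69 symbols, because Efna5 is annotated as 2 separate entries, out of 22380 protein-coding genes. The prefix Unc5 also caught Unc50 and Unc5cl, which carry similar symbols but are not known as netrin receptors, and the role plot and the counts over the 70 entries include them. Peaks were assigned to a gene if they were centred at most 10 kb from one of its annotated transcript starts. Unless the 5′-most start is named, distances are to the nearest annotated start of the gene, so peaks of 1 gene can be measured from different starts. By this criterion 119 of 34286 peaks in the DOP-treated list and 113 of 33355 peaks in the untreated list lay near these genes.

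The study immunoprecipitated chromatin carrying histone H3 acetylated at lysine 9 (H3K9ac) from STHdhQ111/Q111 cells and sequenced it. These are conditionally immortalised striatal progenitor cells of mouse origin, a single established line in which both huntingtin alleles carry an expanded CAG repeat (Q111). The DOP-treated group (2 samples) received 4 mM DOP, an inhibitor of sphingosine-1-phosphate lyase, for 24 h in serum-free medium. The untreated group (2 samples) was kept for 24 h in the same serum-free condition with vehicle only. Both groups therefore share the mutant huntingtin alleles and the serum withdrawal, and 1 IgG sample of serum-starved cells is not analysed here. Wild-type Q7 cells are not analysed here either. The authors deposited 1 peak list per condition, so every difference given here is a difference between 2 lists and has no replicate error. No test between conditions was possible, and the intervals given cover the counting of peaks only.

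Axon guidance molecules are cues that steer a growing neurite by attraction or repulsion at its tip. Semaphorins act through plexins, with neuropilins as co-receptors for most secreted class 3 semaphorins. Ephrins bind Eph receptor tyrosine kinases on neighbouring cells and can signal into both cells, netrins act through Dcc and the Unc5 receptors, and slits act through Robo receptors. In the striatum these families pattern the projections that enter and leave the nucleus during development, and several of them also act on blood vessels and on cell migration. H3K9ac is a mark of active promoters and is usually found on the nucleosomes around a transcription start.

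The peaks on which the description turns are intervals of 200 bp around a called position, and their sequences show how rich in CpG dinucleotides these places are. The first pair are the highest-ranked peaks of the gene set in the DOP-treated and in the untreated list. The next pair are the only peaks of Efna5, 1 in each list, and they lie 2886 bp apart. They are followed by peaks of 1 list only at Efnb2, Nrp2, Epha4 and Sema5a. All were read from the NCBIM37 (mm9) assembly on the strand of the gene, from 5′ to 3′, and capitals mark every CpG. None of these intervals contains annotated exon sequence.
Plxna1, DOP-treated, intron, chr6:89312160-89312359, minus strand: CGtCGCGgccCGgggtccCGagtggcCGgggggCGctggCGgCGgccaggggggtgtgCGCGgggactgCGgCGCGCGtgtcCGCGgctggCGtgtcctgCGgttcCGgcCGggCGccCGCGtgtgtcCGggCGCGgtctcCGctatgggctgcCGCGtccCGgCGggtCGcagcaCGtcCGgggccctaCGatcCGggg
Epha2, untreated, intron, chr4:140857405-140857604, plus strand: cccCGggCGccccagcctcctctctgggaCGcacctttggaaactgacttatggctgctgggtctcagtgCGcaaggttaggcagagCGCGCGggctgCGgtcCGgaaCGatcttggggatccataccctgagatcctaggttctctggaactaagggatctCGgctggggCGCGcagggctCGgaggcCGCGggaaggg
Efna5, DOP-treated, intron, chr17:63229246-63229445, minus strand: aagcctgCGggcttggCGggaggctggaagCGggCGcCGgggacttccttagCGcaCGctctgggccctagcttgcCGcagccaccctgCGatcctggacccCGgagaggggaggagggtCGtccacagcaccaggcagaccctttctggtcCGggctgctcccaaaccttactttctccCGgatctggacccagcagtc
Efna5, untreated, upstream of the gene, chr17:63232132-63232331, minus strand: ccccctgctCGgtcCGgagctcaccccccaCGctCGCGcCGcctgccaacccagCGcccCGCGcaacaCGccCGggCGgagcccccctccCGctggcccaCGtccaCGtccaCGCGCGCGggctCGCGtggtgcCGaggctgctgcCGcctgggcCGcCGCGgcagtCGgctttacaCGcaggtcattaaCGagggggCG
Efnb2, untreated, intron, chr8:8659912-8660111, minus strand: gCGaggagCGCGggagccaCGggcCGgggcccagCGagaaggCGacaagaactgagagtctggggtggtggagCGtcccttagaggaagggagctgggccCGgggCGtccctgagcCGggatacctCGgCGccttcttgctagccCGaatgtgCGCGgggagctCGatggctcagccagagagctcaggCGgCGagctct
Nrp2, untreated, upstream of the gene, chr1:62749577-62749776, plus strand: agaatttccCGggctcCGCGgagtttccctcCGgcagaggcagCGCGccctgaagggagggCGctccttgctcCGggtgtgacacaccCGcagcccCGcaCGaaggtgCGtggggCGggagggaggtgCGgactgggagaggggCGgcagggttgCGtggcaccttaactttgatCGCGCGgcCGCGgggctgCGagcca
Epha4, untreated, intron, chr1:77511262-77511461, minus strand: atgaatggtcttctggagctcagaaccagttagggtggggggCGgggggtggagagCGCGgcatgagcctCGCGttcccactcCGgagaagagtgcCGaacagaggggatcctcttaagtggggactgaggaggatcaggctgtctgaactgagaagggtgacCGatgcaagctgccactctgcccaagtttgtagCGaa
Sema5a, DOP-treated, upstream of the gene, chr15:32174028-32174227, plus strand: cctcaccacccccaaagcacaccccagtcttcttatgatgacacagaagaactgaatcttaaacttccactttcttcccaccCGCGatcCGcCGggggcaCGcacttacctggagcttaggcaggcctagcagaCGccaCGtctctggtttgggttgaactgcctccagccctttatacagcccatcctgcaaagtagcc

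The Plxna1 interval holds 37 CpGs in 200 bases and is 82.0% G or C, and the untreated Efna5 interval holds 30 CpGs at 77.5%. The Nrp2 interval holds 22 CpGs, Efnb2 19, Epha2 16 and the DOP-treated Efna5 interval 13. Epha4 with 9 and Sema5a with 7 CpGs are the poorest of the 8 sequences. Over all peaks near the guidance genes the median G or C content was 63.5% with DOP and 64.0% without, against 60.5% and 61.0% for the peaks near any protein-coding gene. The GC box, searched as the letters GGGCGG on either strand, was present in 32.8% of the DOP-treated and 31.9% of the untreated peaks of the guidance genes. Of all peaks, which have the same length of 200 bp except 1 untreated peak, 28.5% and 29.3% hold it. A match of these letters describes the sequence and is not a measured binding site.

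Of the 70 entries, 37 had peaks in both lists. Sema4a, Sema5b and Sema6b (3) had DOP-treated peaks only, Epha4, Ephb2, Sema3b, Sema3d and Sema6a (5) untreated peaks only, and 25 had no peak. As shares these are 52.9% with peaks of both lists and 35.7% with none. Over all 22380 protein-coding genes 55.3% had peaks of both lists, 2.39% of the DOP-treated list only, 1.62% of the untreated list only, and 40.7% had none. Counted by list, 57.1% of the guidance genes had a DOP-treated peak and 60.0% an untreated peak, against 57.7% and 56.9% of all genes. The guidance genes thus carried H3K9ac peaks about as often as genes in general, in either condition, and the share differed widely between the families.

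**Figure D1:**
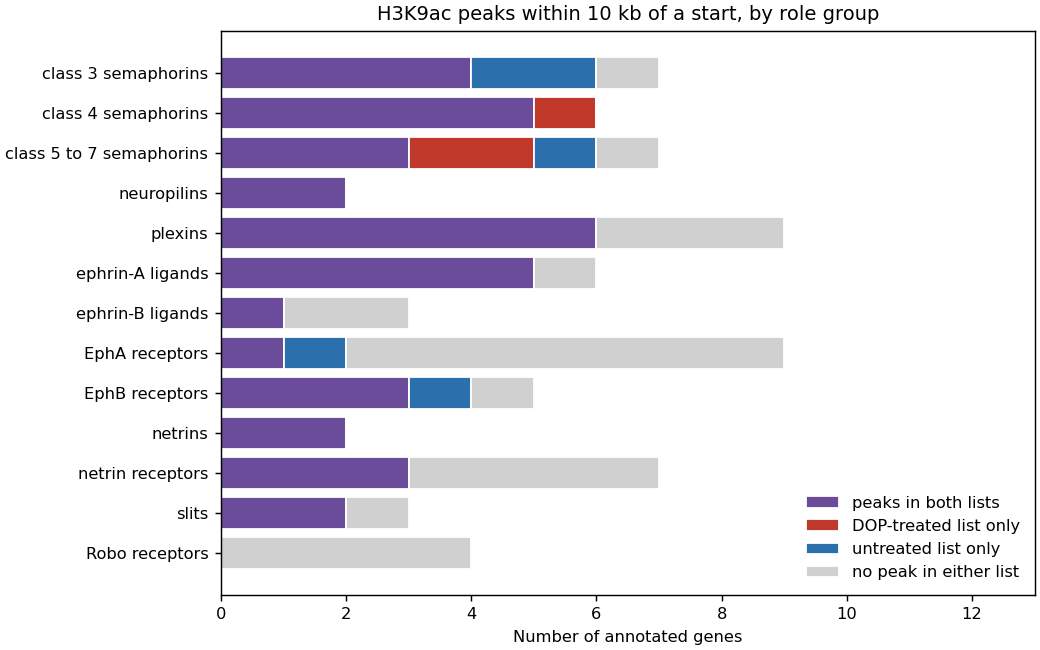
Number of annotated genes in each role group with H3K9ac peaks in both lists, in 1 list only or in neither, as stacked bars. All 6 class 4 semaphorins, both neuropilins and both netrins had peaks, whereas 7 of the 9 EphA receptors and all 4 Robo receptors had none.

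The ligands of the semaphorin family were widely marked. Of the 7 class 3 semaphorins, the secreted members, 6 had a peak, 4 of them in both lists. Of the 6 membrane-bound class 4 semaphorins all had a DOP-treated peak and 5 an untreated one. Of the 7 genes of classes 5 to 7, which are anchored in the membrane, 3 had peaks of both lists, 2 of the DOP-treated list only and 1 of the untreated list only. The class 3 genes had 10 DOP-treated against 15 untreated peaks, the class 4 genes 20 against 16, and the classes 5 to 7 11 against 5, where peaks near any protein-coding gene numbered 29561 and 28989. The class 3 counts include 6 peaks of the untreated list only, all at or below percentile 11.4, and the class 4 counts include 4 and 2 Sema4c peaks closer to another gene.

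Among the class 3 semaphorins Sema3f, a repellent that acts through Nrp2, had the highest-ranked peaks. To rank a peak its score was expressed as a percentile within its own list, since the definition of the score is not given in the sources used here and the scores of the 2 lists cannot be set against each other. The highest Sema3f peak lay 814 bp downstream of a start in the DOP-treated list (percentile 78.3) and 799 bp downstream in the untreated list (percentile 78.9). A neighbouring peak at 1120 and 1107 bp was present in both lists. The untreated list held a further pair of Sema3f peaks 4314 and 6634 bp upstream, which had no DOP-treated counterpart and ranked low in their list, at percentiles 11.4 and 0.288.

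Sema3c, known for its part in heart and vessel development, had 3 peaks in each list, and its highest one was at percentile 59.3 in the DOP-treated and 62.9 in the untreated list. Sema3a, the classic growth cone collapsing factor, had a pair of peaks in each list, 96 and 354 bp from their nearest starts in the DOP-treated list and 80 and 230 bp in the untreated list, the highest at percentiles 34.2 and 30.6. They lay in an internal start region and not at the 5′-most one. Sema3e, the ligand of Plxnd1, had 3 DOP-treated peaks and 2 untreated peaks, the highest at percentiles 31.4 and 44.1.

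Sema3d and Sema3b had peaks in the untreated list only. Sema3d, a guidance cue of neural crest and axons, had 3 untreated peaks at 68, 433 and 709 bp downstream of the 5′-most start, and the nearest DOP-treated centre was 26835 bp or more away. They were among the weakest in their list, with scores of 36.7, 79.9 and 22.4 and percentiles of 2.43, 8.32 and 0.213, where the lowest score of that list was 21. Sema3b had a single untreated peak 3331 bp upstream, at percentile 11.4. Sema3g was the class 3 gene without a peak.

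The class 4 semaphorins were led by Sema4c, a ligand of Plxnb2. Its highest peak was at 517 bp in the DOP-treated list with percentile 90.3 and at 514 bp in the untreated list with percentile 86.4. Sema4c had 7 DOP-treated and 6 untreated peaks, the most of its group. However, 4 and 2 of these lay between 5250 and 6365 bp downstream, closer to the start of Ankrd39 than to that of Sema4c. An untreated peak 1209 bp from a start of Sema4c, at percentile 80.7, had no overlapping DOP-treated peak, and the nearest DOP-treated centre was 692 bp away.

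Sema4b had 5 peaks in each list, divided between both of its start regions, which are annotated starts grouped within 1 kb of each other. Its highest peak was at percentile 55.9 in the DOP-treated and 72.3 in the untreated list. Sema4d, which signals through Plxnb1, had a pair of peaks in each list at 1 of its 8 start regions, with the highest at percentiles 36.1 and 32.2. Sema4f reached 23.0 at 228 bp with DOP. Without DOP it reached 15.2, and peaks at 302 and 8468 bp had the same score. These were the lowest values of the genes marked in both lists. Sema4g reached 31.7 and 32.9. Sema4a, known for its role in immune cells and the retina, had only 1 DOP-treated peak 4334 bp upstream with a score of 81.0 (percentile 7.53), and the nearest untreated centre was 27247 bp away.

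In the membrane-anchored classes 5 to 7, Sema5a had 4 DOP-treated peaks against 1 untreated peak, an excess that among the guidance genes only Plxnb2 equalled. Its DOP-treated peaks lay 441 bp upstream and 275, 1152 and 1685 bp downstream of the 5′-most start. The peak at 1152 bp overlapped the single untreated peak at 1056 bp. The sequence of the DOP-treated peak at 1685 bp repeats long stretches of these overlapping peaks nearly letter for letter. How reads were placed between such copies is not given in the sources used here. The DOP-treated pair upstream and at 275 bp had scores of 393 and 406 (percentiles 47.2 and 48.6), near the middle of that list. The nearest untreated centres were 1497 and 781 bp away. Sema5a is a bifunctional guidance cue with thrombospondin repeats.

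Sema5b, its close relative, had 1 DOP-treated peak 46 bp upstream of a start with a score of 222 (percentile 26.6), and no untreated centre closer than 50916 bp. Sema6b had a pair of DOP-treated peaks at 182 bp downstream and 1581 bp upstream, both weak, at percentiles 6.79 and 0.0379. The second of these has the lowest score in the DOP-treated list, 23.0. Sema6a was marked by 1 untreated peak at 2679 bp with percentile 8.82. Sema6c, with a pair of peaks in each list and a highest percentile of 69.2 and 62.2, was the most highly ranked gene of the group. Sema7a, the member with a lipid anchor, had peaks in both lists at 260 and 247 bp (percentiles 42.4 and 41.5) and a DOP-treated peak at 679 bp without overlap. Sema6d had no peak.

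**Figure D2:**
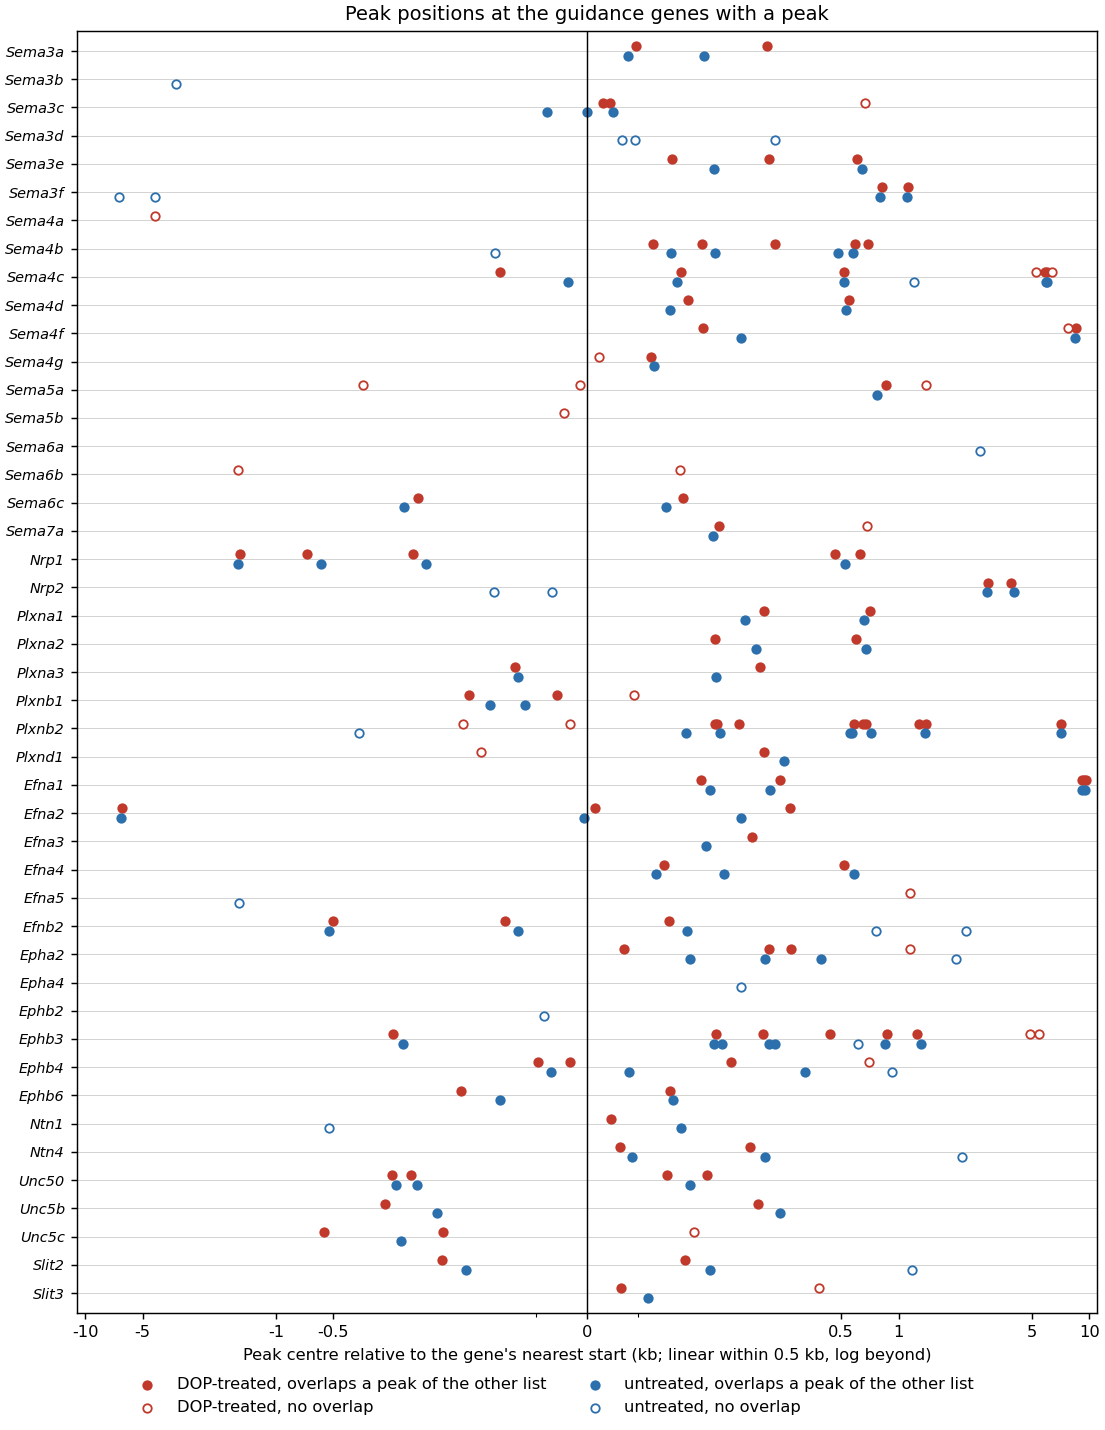
Distance of every peak centre from the nearest annotated start of its gene, in kb, for the 45 marked genes. Red points are DOP-treated peaks and blue points untreated peaks, and open points have no overlapping peak in the other list. Most points lie within 1 kb of the start. Open points close to a start are seen at many genes, among them Sema3d, Nrp2, Sema5a, Sema5b, Ephb2 and Epha4. Sema5a has a further open point at 1395 bp.

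On the receptor side both neuropilins were marked in both lists, but in different ways. Nrp1, the receptor shared by Sema3a and vascular growth factors, had 5 DOP-treated peaks at 1538, 690 and 343 bp upstream and 487 and 623 bp downstream. The untreated list had 4 peaks at 1586, 577 and 318 bp upstream and 524 bp downstream. All of them overlapped a peak of the other list. The highest Nrp1 peak was at percentile 60.6 in the DOP-treated list, which is 17.5 points under its 78.2 in the untreated list. The upstream peaks went the other way, at percentiles 49.6, 43.8 and 53.9 with DOP against 26.7, 39.2 and 48.1 without.

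Nrp2, the receptor for Sema3f, had a pair of peaks further into the gene in both lists, 3375 and 4293 bp from the 5′-most start with DOP and 3338 and 4467 bp without, the higher one at percentiles 74.9 and 74.5. The untreated list held another pair around the 5′-most start, 183 bp upstream and 347 bp downstream of it, with scores of 426 and 438 (percentiles 52.7 and 54.1). No DOP-treated peak overlapped these, and the nearest DOP-treated centres were 3558 and 3028 bp away. Nrp2 therefore had 2 DOP-treated against 4 untreated peaks, and the difference lay in the pair around the start.

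Of the 9 plexins, the signalling receptors of the semaphorins, 6 had peaks in both lists and 3 in neither. Plxna1 carried the highest-ranked DOP-treated peak of all guidance genes, at 348 bp with a score of 1849 (percentile 98.7), and its untreated counterpart at 310 bp had percentile 98.4. A neighbouring peak at 703 and 660 bp reached percentiles 95.4 and 96.3. Plxna1 was thus almost the same in both lists.

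Plxnb2, the receptor of Sema4c, had 11 peaks in the DOP-treated list, the most of any guidance gene, and 8 in the untreated list, as many as Ephb3, with peaks within 1 kb of 3 of its 6 start regions. Its highest peak was at percentile 88.1 in the DOP-treated and 97.8 in the untreated list, 252 and 262 bp downstream of the same start. Apart from 1 peak in each list, at 7153 and 7139 bp and closer to the start of Mapk11, all lay within 1392 bp of a start. The DOP-treated Plxnb2 peaks at 1392 and 1277 bp overlapped each other and the same untreated peak at 1382 bp. Those at 299 and 252 bp also overlapped each other and the same untreated peak, at 262 bp.

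Plxnd1, the Sema3e receptor of vessels and striatal projections, had a shared peak at 347 and 387 bp (percentiles 74.6 and 66.6) and a DOP-treated peak 210 bp upstream (percentile 45.8) without overlap. The highest peaks of the other marked plexins were in the middle of their lists. Plxna2 reached percentiles of 50.6 and 58.7, Plxnb1 48.6 and 56.5, and Plxna3 45 and 36.7. No peak was found at Plxna4, Plxnb3 and Plxnc1.

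Of the 6 ephrin-A entries, the lipid-anchored ligands of the EphA receptors, 5 had peaks in both lists. Efna1 reached percentiles of 88.3 and 87.0 at 380 and 359 bp, at the internal one of its 2 start regions. A further 3 DOP-treated and 2 untreated peaks assigned to Efna1 were more than 9 kb away and closer to the start of Slc50a1. Efna4 had its highest peak in the DOP-treated list at 152 bp (percentile 89.4). In the untreated list the highest Efna4 peak was at 270 bp (percentile 78.8). Efna2 reached 55.7 and 60.8, and Efna3 had 1 peak in each list, at percentiles 32.3 and 27.5.

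Efna5, the ephrin-A best known for topographic maps, was counted among the genes with peaks in both lists, although its peaks did not coincide. The DOP-treated peak lay 1321 bp downstream of the 5′-most start in an intron and scored 646 (percentile 69.98). The untreated peak lay 1565 bp upstream of that start and scored 490 (percentile 59.2). Neither list had a peak at the position of the other, and the upstream interval is the richer in CpG, with 30 against 13. The DOP-treated one was the highest-ranked DOP-treated peak of the gene set that had no overlap. The second annotated Efna5 entry, a model of 2.42 kb, had no peak.

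Of the 3 transmembrane ephrin-B ligands only Efnb2, the arterial ephrin, was marked. The DOP-treated peaks of Efnb2 lay 501 bp upstream and 304 and 627 bp downstream of the 5′-most start. Each overlapped an untreated peak, at 526 bp upstream and 330 and 663 bp downstream. The highest of these was at percentile 74.6 with DOP and 80.4 without. The untreated list had another pair inside the gene, at 1228 bp (score 879, percentile 83.7) and 2733 bp (percentile 23.7) from the same start. The peak at 1228 bp was the highest-ranked untreated peak of the gene set without overlap, and the nearest DOP-treated centre was 601 bp away. Efnb1 and Efnb3 had no peak.

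The Eph receptors were marked unevenly. Of the 9 EphA receptors, 7 had no peak in either list: Epha1, Epha3, Epha5, Epha6, Epha7, Epha8 and Epha10. Epha2, a receptor widely expressed in epithelial and tumour cells, carried the highest-ranked untreated peak of all guidance genes, at 349 bp with a score of 1950 (percentile 98.8). Its DOP-treated counterpart at 357 bp scored 1712 (percentile 98.0). Epha2 had 4 peaks in each list, with peaks within 1 kb of 2 of its 4 start regions. In each list 1 peak lacked overlap, at 1141 bp from its nearest start in the DOP-treated list (percentile 64.3) and at 2004 bp in the untreated list (percentile 29.3).

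Epha4, a receptor with broad ephrin binding and a known role in corticospinal wiring, was marked by 1 untreated peak. It lay 302 bp downstream of the start with a score of 137 (percentile 16.3). The nearest DOP-treated centre was 674966 bp away.

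Of the 5 EphB receptors 4 had a peak. Ephb3 had 8 peaks in each list, with peaks within 1 kb of 2 of its 4 start regions, and its highest peak, at 346 and 358 bp, was at percentile 93.1 in the DOP-treated and 76.7 in the untreated list. That is 16.4 points higher with DOP. A pair of weak DOP-treated peaks at 4880 and 5420 bp, both at percentile 1.95, had no untreated counterpart. Ephb4, the venous receptor of Efnb2, had 4 peaks in each list with the highest at percentiles 89.3 and 79.7. Its innermost peaks, at 700 bp in the DOP-treated and 928 bp in the untreated list, did not overlap, with centres 228 bp apart. Ephb6, which lacks kinase activity, had a pair of peaks in each list with the highest at percentiles 36.2 and 34.4. Ephb2 had 1 untreated peak 86 bp upstream of the start (score 239, percentile 30.4), and the nearest DOP-treated centre was 212067 bp away. Ephb1 had none.

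Both netrins, the secreted cues of the Dcc and Unc5 receptors, were marked in both lists, with 3 DOP-treated and 5 untreated peaks together. Ntn4 reached percentile 61.1 in the DOP-treated and 44.4 in the untreated list at 320 and 350 bp, the largest gap in favour of DOP, 16.8 points. The untreated list also held a weak Ntn4 peak at 2160 bp (percentile 7.34). Ntn1 had a peak at 46 bp in the DOP-treated list (percentile 50.5) and at 185 bp in the untreated list (percentile 55.8), at its internal start region. An additional untreated Ntn1 peak 527 bp upstream (percentile 14.1) had no overlap.

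Of the 5 netrin receptors Unc5b and Unc5c had peaks, in both lists. Dcc, the attractive receptor, had no peak within 10 kb of a start, and neither had Unc5a and Unc5d, nor Unc5cl, which is not known as a netrin receptor. Unc5b, a receptor of the vascular tip cell and of repelled axons, had a pair of peaks in each list, the highest at 337 and 380 bp with percentiles 60.1 and 47.6. Unc5c had 3 DOP-treated peaks and 1 untreated peak. The Unc5c peak 283 bp upstream was at percentile 36.4 in the DOP-treated list, and the single untreated peak 366 bp upstream was at 50.3. That untreated peak overlapped the DOP-treated peaks at 283 and 561 bp upstream. Unc50, which is not known as a netrin receptor either, had 4 and 3 peaks with the highest at percentiles 69.6 and 88.4. This gap of 18.8 points was the largest in favour of the untreated list.

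Of the 3 slits Slit2 and Slit3 were marked in both lists and Slit1 in neither. Slit2 had peaks 286 bp upstream and 192 bp downstream in the DOP-treated list and 239 bp upstream and 242 bp downstream in the untreated list, which also held one at 1172 bp (percentile 7.84) without overlap. The highest ranked at percentiles 31.2 and 30.9, and only 1 of the 13 Slit2 start regions was marked. Slit3, one of the longest genes of the set at 587 kb, had a shared peak at 66 and 119 bp (percentiles 34.5 and 38.8) and a DOP-treated peak at 456 bp (percentile 16.3) without overlap. None of the 4 genes of the Robo family, through which slits act, had a peak in either list.

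In number of peaks per gene, 17 of the 45 marked genes had more DOP-treated than untreated peaks, 12 had fewer and 16 had as many. Of the 13272 protein-coding genes marked in any way 32.5% had more DOP-treated peaks and 28.5% fewer. The largest excess on the DOP-treated side was 3 peaks, at Sema5a and Plxnb2. The largest on the untreated side was also 3, at Sema3d. The differences of 2 peaks were at Unc5c and Sema6b in favour of DOP and at Nrp2, Sema3f and Efnb2 in favour of the untreated list. An excess in number is not always an excess in separate places. At Plxnb2 and Unc5c more than 1 DOP-treated peak overlapped the same untreated peak. Of their DOP-treated peaks, 2 at Plxnb2 and 1 at Unc5c had no overlap. At Efna4 more than 1 untreated peak overlapped the same DOP-treated peak. Marked guidance genes had a median of 2 peaks in each list, and marked genes in general a median of 3.

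Peaks without overlap in the other list numbered 24 of 119 in the DOP-treated list, which is 20.2% (95% Wilson interval 13.9 to 28.3%), and 23 of 113 in the untreated list, which is 20.4% (14.0 to 28.7%). These intervals treat the peaks as independent, although many lie at the same gene, so they may be too narrow. For peaks near any protein-coding gene the shares were 16.2% and 13.3%. Guidance gene peaks without overlap had a median percentile of 19.0 in the DOP-treated and 23.2 in the untreated list. Shared peaks of the guidance genes had 49.4 and 47.9. Peaks near any protein-coding gene gave 21.97 and 22.6 without overlap and 61.3 and 59.7 when shared, so the low rank of unshared peaks is a feature of the lists in general. The guidance gene peaks ranked lower as a whole, with medians of 44.6 and 46.3 against 55.2 and 55.1. The shares without overlap were not matched for rank. Many of the unshared guidance gene peaks also had a peak of the other list close by. With centres within 1 kb counted as the same place, 8 DOP-treated peaks (6.72%) and 16 untreated peaks (14.2%) remained, against 5.54% and 3.99% near any gene. The 8 were those of Efna5, Sema4a, Sema5b, Sema6b and Ephb3 described above and the upstream one of Sema5a. The 16 were the single peaks of Epha4, Ephb2, Sema3b, Sema6a and Efna5, the pair around the start of Nrp2, the 3 peaks of Sema3d, the upstream pair of Sema3f, and 1 peak each inside Efnb2, Epha2, Ntn4 and Slit2.

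**Figure D3:**
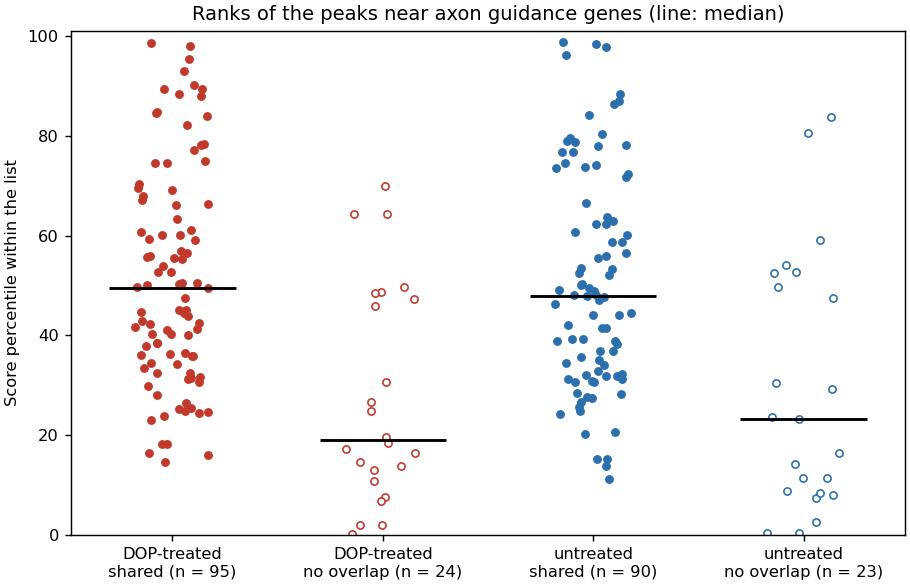
Score percentile, within its own list, of each of the 232 peaks near guidance genes, separated by list and by overlap with the other list. Each point is a peak and the black line is the median, which is 49.4 and 47.9 for the shared peaks and 19.0 and 23.2 for those without overlap.

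The rank of the highest peak was compared at the 37 genes marked in both lists. It is not always the same peak, since at 6 of them (Efna5, Efnb2, Plxnb1, Sema3e, Sema4b and Sema5a) the highest peaks of the lists did not overlap. Of these 21 ranked higher in the DOP-treated list and 16 lower, with a median difference of 0.41 percentile points and a median absolute difference of 7.09 points. Over the 12375 protein-coding genes marked in both lists the median difference was 0.63 and the median absolute difference 3.92 points. The ranks were within 10 points for 27 of the 37 (73.0%), against 78.7% of all genes. The largest gaps in favour of DOP were 16.8 points for Ntn4, 16.4 for Ephb3 and 12.5 for Unc5b. The gaps in the other direction were led by Unc50, no netrin receptor, which was lower by 18.8 points with DOP, Nrp1 by 17.5, Sema4b by 16.4 and Unc5c by 13.9. No replicate lists were available to say how far such ranks move between samples of 1 condition.

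**Figure D4:**
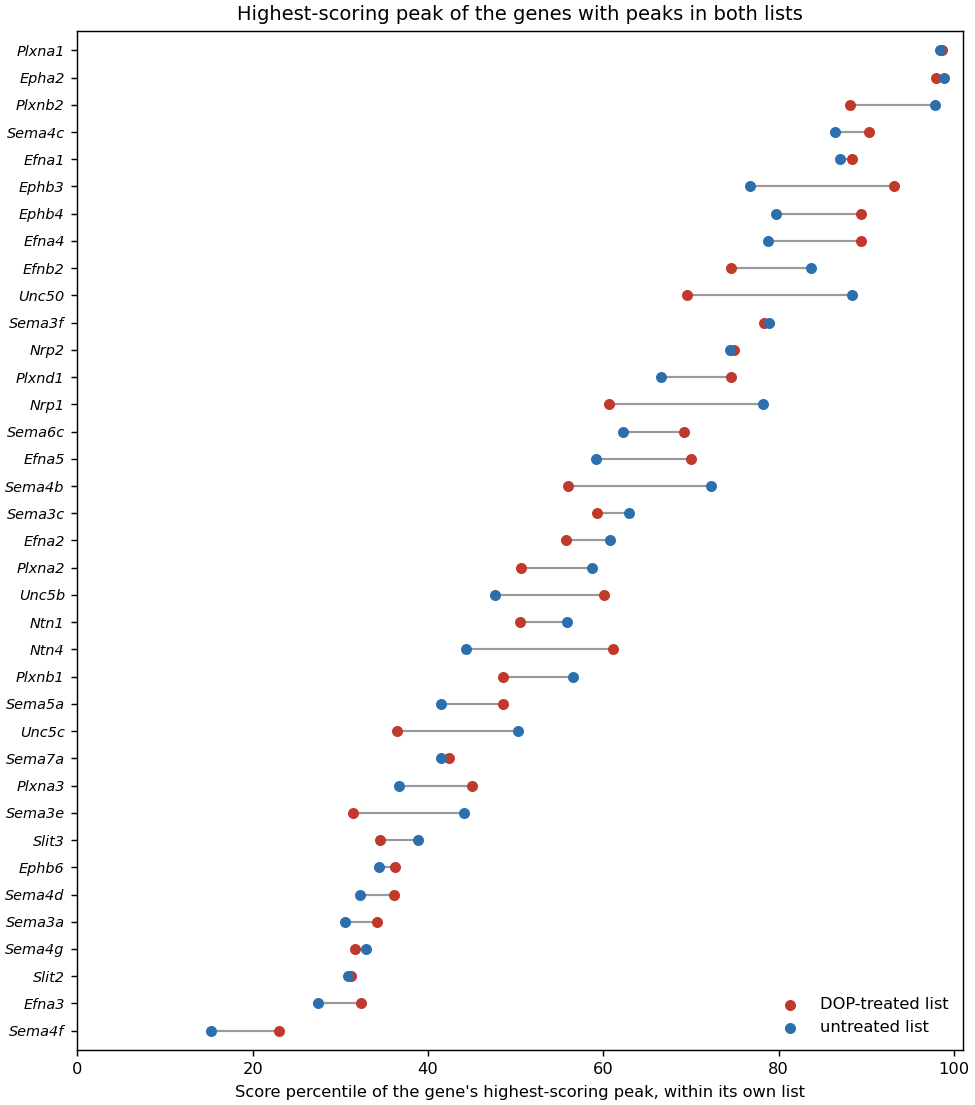
Score percentile of the highest-scoring peak of each of the 37 genes with peaks in both lists, red for the DOP-treated and blue for the untreated list, joined by a line and ordered by their mean. Plxna1 and Epha2 lie above 97 in both lists, and Unc50, Nrp1, Ntn4, Ephb3 and Sema4b show the longest lines.

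The peaks of the guidance genes ranked lower than those of genes in general, with a median percentile of 44.6 in the DOP-treated and 46.3 in the untreated list, against 55.2 and 55.1 near any protein-coding gene. Of the DOP-treated peaks 79.0%, and of the untreated ones 79.6%, were at most 1 kb from a start of the guidance gene itself. Measured to the nearest start of any gene the shares were 86.6% and 85.0%, close to the 86.9% and 87.7% of peaks near any protein-coding gene. Most peaks lay downstream of the start (75.6% and 71.7%, against 70.9% and 72.8% near any gene). The median position was 255 bp downstream in the DOP-treated and 249 bp downstream in the untreated list. The centre fell in an annotated 5′ untranslated region for 26.1% and 23.9% of them, where peaks near any gene gave 13.1% in each list. The shares in introns were 42.0% and 43.4%, against 49.8% and 51.2%. Where peaks overlapped between the lists their centres were a median of 40.0 bp apart seen from the DOP-treated list and 37.5 bp seen from the untreated list. At the edge of the 10 kb window the outermost peaks inside were those of Efna1 at 9634 bp, and the nearest peak outside lay 10736 bp from a start of Efna2. For 108 of the 119 DOP-treated and 105 of the 113 untreated peaks the nearest protein-coding start was that of a guidance gene.

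Many guidance genes have several annotated starts. The 42 genes with more than 1 start region have 145 such regions, and 32 (22.1%) held a DOP-treated and 31 (21.4%) an untreated peak within 1 kb. Over all protein-coding genes with several regions the shares were 26.5% and 26.1%. More than 1 region was marked at 5 genes in each list, namely Epha2, Ephb3, Plxnb2, Sema4b and Unc50, the last no netrin receptor. Efna1, Ntn1 and Sema3a were the genes with several regions where the 5′-most one was bare and an internal one was marked, in both lists.

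A CpG-rich start, with an observed to expected CpG ratio of at least 0.6, was less frequent among the guidance genes without a peak. Of these 13 of 25 (52.0%) had one, and of the marked guidance genes 37 of 45 (82.2%). Over all genes the shares were 11.7% of the unmarked and 68.9% of the marked, a wider contrast. The unmarked guidance genes ranged from 2.42 to 1092 kb. Their median length was 143 kb, against 40.2 kb for the marked guidance genes, while over all genes the unmarked were the shorter ones (8.11 against 20.9 kb). Longer than 100 kb were 13 of the 25 unmarked guidance genes (52.0%) and 40.0% of the marked ones. Over all genes these shares were 9.51% and 11.6%. The ratio, taken over the 500 bp on each side of the 5′-most start, was a median of 0.637 for the unmarked and 0.696 for the marked guidance genes, against 0.222 and 0.717 over all genes. Of the 50 guidance genes with a ratio of at least 0.6, 37 had a peak (74.0%), where 89.5% of all genes in that class did. Below 0.6 the share was 8 of 20 (40.0%), against 33.9% of all genes. The group therefore holds 13 genes with a CpG-rich start and no peak, among them Plxnc1 (0.942), Epha8 (0.882), Epha7 (0.875), Unc5d (0.838), Unc5a (0.804) and Robo1 (0.699). By length, 18 of 31 guidance genes over 100 kb were marked (58.1%, against 63.9% of all genes) and 21 of 30 up to 30 kb (70%, against 54.0%).

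**Figure D5:**
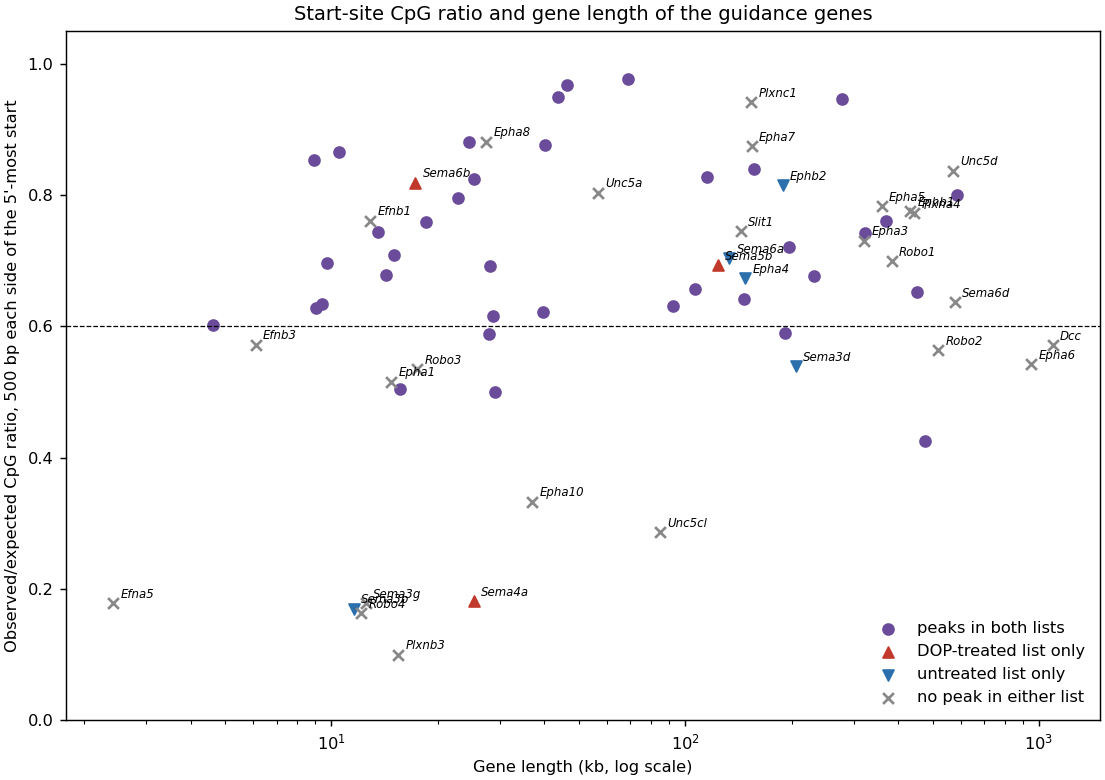
Observed to expected CpG ratio around the 5′-most start against gene length in kb (log axis) for the 70 entries, with symbols for peaks in both lists, 1 list or neither. The dashed line is at a ratio of 0.6, and 13 unmarked genes lie above it, most of them longer than 100 kb.

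The 200 bases before the 5′-most start show this for the marked and the unmarked gene with the highest CpG ratio of the set, 0.978 for Unc5b and 0.942 for Plxnc1, the receptor of Sema7a. Both were read as above, with every CpG in capitals.
Unc5b, marked in both lists, chr10:60294330-60294529, minus strand: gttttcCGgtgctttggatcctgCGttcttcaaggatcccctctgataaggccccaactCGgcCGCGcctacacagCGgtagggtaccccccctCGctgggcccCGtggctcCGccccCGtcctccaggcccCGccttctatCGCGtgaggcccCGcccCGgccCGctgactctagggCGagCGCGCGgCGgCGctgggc
Plxnc1, no peak in either list, chr10:94407213-94407412, minus strand: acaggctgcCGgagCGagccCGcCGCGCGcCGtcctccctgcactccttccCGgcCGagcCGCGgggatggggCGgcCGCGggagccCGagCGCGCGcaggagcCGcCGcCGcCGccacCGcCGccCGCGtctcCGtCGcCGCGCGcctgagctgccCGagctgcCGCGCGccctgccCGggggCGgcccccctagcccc
The unmarked Plxnc1 sequence holds 37 CpGs and 3 GC boxes, and the marked Unc5b sequence 22 CpGs and 2 GC boxes. From 250 bases before to 50 after the start, 75.6% of the marked and 64.0% of the unmarked guidance genes hold a GC box, against 60.3% and 19.0% of all genes. The letters TATAAA, on either strand, occur in 4.44% of the marked and none of the 25 unmarked guidance genes in that window, against 7.47% and 22.2% of all genes.

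Genes of the pathway outside the symbol rule were read against all protein-coding genes, of which 59.3% had a peak in either list. Of 20 annotated ligands and receptors 10 had a peak (50%), near that share, and 8 of them in both lists. Neo1, the relative of Dcc that also binds netrins and repulsive guidance molecules, reached percentiles of 95.0 and 96.7, and its ligand Rgmb 94.4 and 97.3. Flrt3, a ligand of Unc5 receptors, and L1cam, an adhesion molecule of axons, had 1 DOP-treated peak each at percentiles 19.3 and 10.498. Of 50 effectors 47 had a peak (94.0%), 45 in both lists. The small GTPases Cdc42 (99.7 and 99.8) and Rac1 (99.3 and 99.4) were near the top of both lists, and Rhoa was at 98.2 and 92.3. The collapsin response mediators Crmp1 and Dpysl4 and Mical3, of the family of semaphorin effectors, had no peak. Dpysl5 and Fes had DOP-treated peaks only, at percentiles 17.9 and 46.2. Of all protein-coding genes 2.39% had peaks of the DOP-treated list only.

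Marker genes were also read against that share of 59.3%. Of 9 neural progenitor markers 6 had a peak (66.7%), with Vim at percentiles 98.0 and 94.0, but the defining Nes, Sox2 and Pax6 had none. Of 11 striatal lineage markers 7 had a peak (63.6%), among them Foxp1 (89.8 and 88.7) and Meis2 (79.9 and 76.2), and Bcl11b, Dlx5, Gsx2 and Isl1 had none. Of the other cell types, 4 of 6 fibroblast markers (66.7%) and 1 of 5 endothelium markers had a peak. So had 2 of 5 for astrocytes, 2 of 6 for oligodendrocytes and 2 of 6 for microglia. With and without DOP, Col1a1 was at percentiles 89.6 and 63.7 and Pdgfrb at 63.1 and 70.9. Col3a1 was at 25.4 and 32.6, Col1a2 at 23.5 and 25.5, and Dcn and Lum had no peak. Of the microglia markers Aif1 was at 98.1 and 94.3 and Tyrobp at 24.1 and 36.9, and Csf1r, Cx3cr1, Itgam and Ptprc had none. Fabp7, Dlx2, Dlx6, Slc1a3, Mbp and Kdr had DOP-treated peaks only, and none of these markers had untreated peaks only. Their highest percentiles were 19.2, 42.0, 8.10, 15.0, 7.58 and 20.6, in that order. Over all protein-coding genes 2.39% had peaks of the DOP-treated list only and 1.62% of the untreated list only. The progenitor, striatal and fibroblast shares lie near that of all genes. The cells are a cultured line, and the part of such markers in the guidance gene results was not tested.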

How the data were processed

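H3K9ac ChIP-seq reads were aligned to mm9 by the authors with Bowtie 2 according to the study's methods, whereas the submitters' processing notes name BWA 0.7.10, and peaks were called with GPS, while the track lines of the lists name GEM. The authors deposited 1 peak list per condition with a score for each peak, and the definition of that score, the threshold, the use of the IgG sample and whether samples of 1 condition were pooled for calling are not given in the sources used here. Depth per sample is unknown. Both lists are longer than the study's own text states, and which peaks it left out is not known, which bears most on low-percentile peaks such as those of Sema3d, Sema4a, Sema6a and Sema6b. Chromosome ends of NCBIM37 were compared with the lists and 0 peaks ran past them.

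Starts, exons and untranslated regions came from GENCODE vM1. Peaks overlapping by at least 1 bp were shared. Starts within 1 kb were merged into regions. Scores were used as percentiles within a list, with tied scores at their mean rank. Genes named were those with peaks of 1 list, the highest-ranked and the most often marked gene of each role group, the 5 largest differences in peak number with ties, those without peaks and the 3 highest-ranked peaks of each list without overlap, and further marked genes are given to account for every member. Members and gene lists were chosen with earlier results of these data known. 1 marker gene is not reported here. Functions were tested on simulated peaks. Alternatives are given in the closing section. The work used pysam 0.24.0 and samtools 1.23.1 for sequence, pandas 2.3.3 and numpy 2.4.6 for tables, scipy 1.17.1 for intervals and matplotlib 3.10.9 for plots, in Python 3.11.15.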

Additional observations from a re-analysis of the deposited data

How the results depend on the processing

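Depth, read densities and replicate peaks are not in the lists, so these counts have no replicate error. No paired analysis was possible because the deposited lists hold no value per sample, and for the same reason no replicate could be left out. Of 70 recomputed counts 49 stayed within 1.5 times of the reported one and 21 did not. Counting centres upstream of any annotated start of the gene, where the report's upstream share refers to the nearest start, gave 26 genes with a DOP-treated peak in place of 40, 62 DOP-treated and 63 untreated peaks in place of 119 and 113, 12 and 15 peaks without overlap in place of 24 and 23, and 6 and 8 genes of 1 list only in place of 3 and 5. The 50% highest-scoring peaks of each list gave 23 genes in each list, 49 DOP-treated and 46 untreated peaks, 12 and 10 without overlap, and 2 genes of the untreated list only. A window of 1 kb left 14 and 13 peaks without overlap. Requiring reciprocal overlap of at least 50% gave 43 and 39, and matching centres within 1 kb gave 8 on the DOP-treated side. A score of at least 100, applied to both lists although their scales may differ, left 1 gene of the DOP-treated list only and 3 of the untreated list only. Leaving out Unc50 and Unc5cl, an alternative added after seeing the data, moved no count beyond 1.5 times.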

Other observations

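Outside the 10 kb windows, peaks also lay in the bodies of some guidance genes. The DOP-treated list had 8 such peaks in 6 genes (8.57% of the 70) and the untreated list 12 in 7 genes (10%), all in introns. Of all protein-coding genes 4.67% and 4.38% had one. These shares were not matched for gene length, and 31 of the 70 entries are over 100 kb, against 2401 of 22380 genes. The median percentiles of the guidance gene peaks were 7.03 and 6.59, against 17.2 and 17.3 for the gene-body peaks of all genes. Plxna1 had the highest, 17.1 kb and 17.2 kb from its 5′-most start, at percentiles 39.2 and 31.6 in the DOP-treated and untreated lists, with centres 13 bp apart. Nrp2 had shared peaks at 18.5 and 60.4 kb in the DOP-treated list, at percentiles 25.4 and 8.62, and their untreated partners at 18.6 and 60.3 kb were at 21.03 and 7.34. Sema3e had a shared intronic peak 86.5 kb into the gene.

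Dcc, which had no peak at its starts, had 1 intronic peak in each list about 928 kb into the gene. The centres were 1 bp apart and their scores of 38 and 32 were close to the lowest of either list (percentiles 2.07 and 1.64). Unc5c held 2 peaks of the DOP-treated list only, at 25.7 and 26.3 kb, and Ntn1 2 of the untreated list only, at 87.0 and 86.5 kb. Single untreated peaks lay in introns of Ephb2 and Plxna4, and a single DOP-treated peak in Sema3a, all below percentile 6 and without overlap.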
